A study of Mus musculus with 39 samples.

Results

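The genes described here take up fatty acids from circulating triglyceride, and they were measured in epididymal adipose tissue, the fat pad beside the testis, of mice on low and high fat diets. They are Lpl, Gpihbp1, Angptl4, Vldlr, Cd36, Slc27a1, Acsl1, Fabp4 and Fabp5. They were chosen by the gene name of the array annotation, 9 of 29411 gene names, and are read by 15 of 40628 probes. A gene with several probes was represented by its brightest probe, and its other probes were used as a check. All 9 genes passed the filter on dim probes in every comparison, since each of the 15 probes was well above background on all 39 arrays.

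Lipoprotein lipase (Lpl) is made by adipocytes and splits triglyceride at the capillary wall, where Gpihbp1 on endothelial cells holds it, and Angptl4 inhibits it. Vldlr is a receptor that binds lipoproteins rich in triglyceride. The fatty acids released are taken up with Cd36 and the transport protein Slc27a1, are joined to coenzyme A by Acsl1, and are carried in the cell by the binding proteins Fabp4 and Fabp5.

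The study followed C57BL/6J mice, weaned at 3 to 4 weeks of age and divided among 5 diets. The time points are named by day and week, and per the study's methods the count of weeks began at day 14, so that day 14 and week 0 are the same time on the diet. LFC is the low fat control diet with 10% of calories from fat (11 arrays: days 1, 6, 10 and 14 and weeks 0, 3, 6, 9, 12, 15 and 18). HFC is a high fat, high sucrose diet with 60% of calories from fat (10 arrays, from day 6 on). HF5, HF20 and HF75 mice ate the HFC diet and were given KAL-1, an aqueous formulation from plants, at 5, 20 and 75 µg in that order (6 arrays each, weeks 3 to 18). Each diet has a single array at each time, and the spread within a diet is therefore that between its time points. The labels name 5 animals killed per group at each 3-week interval and 3 biological replicates per diet, but not whether an array holds RNA of 1 mouse or of a pool, and p-values measure only the spread between these arrays, whose number limits the precision. As whole tissue was used, fewer cells of a type and less RNA per cell cannot be told apart.

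All levels are log2 signal minus the 75th percentile of the array, so that 0 is the signal of a probe at that percentile, and 1 unit is a doubling. The share of spots above background was 53.7% to 79.6% on 37 arrays. The LFC week 3 array (97.1%, with 16431 outlier spots) and the HFC week 12 array (94.5%, with 10531) stood apart and were kept, with outlier spots removed, which left Slc27a1 without a value on the LFC week 3 array. Time points were mostly scanned on separate dates, and the scans of days 1 to 14 came after those of weeks 0 to 18.

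The probe sequences are shown for the genes on which the results turn, since the choice of probe decided what could be read. They are 60 bases long, are copied from the scanner files in lower case with no base marked, and are listed there as unmapped, with no genome position.
Fabp4, a probe saturated on 39 of 39 arrays: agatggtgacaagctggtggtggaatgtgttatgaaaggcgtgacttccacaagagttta
Fabp4, the dimmer probe used here: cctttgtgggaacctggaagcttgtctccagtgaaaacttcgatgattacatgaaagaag
Lpl, the dimmer probe used here: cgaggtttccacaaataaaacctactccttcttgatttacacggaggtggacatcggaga
Acsl1, the dimmer probe used here: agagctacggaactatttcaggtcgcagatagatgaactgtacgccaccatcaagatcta
Gpihbp1, its only probe: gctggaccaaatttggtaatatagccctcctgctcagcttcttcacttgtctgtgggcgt

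Fabp4, an abundant lipid carrier of adipocytes, was too bright for the scanner on its brightest probe, which was saturated on 39 of 39 arrays. Its values there (5.42 to 9.05) followed the upper limit of each array, so they give only a bound and no difference between diets. That probe and the dimmer Fabp4 probe (saturated on 2 arrays) had a correlation of -0.40 over 37 arrays. Angptl4, the inhibitor of lipoprotein lipase, has 1 probe, saturated on 32 of 39 arrays. These were 6 of 11 LFC, 9 of 10 HFC, 5 of 6 HF5, 6 of 6 HF20 and 6 of 6 HF75 arrays. On 30 of the 32 its value lay within 0.25 of the saturated Fabp4 probe, and no fold is given for it. The brightest probe of Lpl was saturated on 13 arrays, that of Acsl1 on 9, Gpihbp1 on 9 and Cd36 on 1, and those of Fabp5, Slc27a1 and Vldlr on none. For this reason levels are given from the probe of each gene with the fewest saturated arrays, a choice made after the saturation was seen. For Lpl and Acsl1 the differences on the brightest probes are given beside them in some comparisons. These are HFC against LFC over 10 time points, HF20 and HF75 against HFC, and late against early within HFC.

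Lpl ranged more widely over the arrays of 1 diet than between diets. On LFC its lowest, median and highest levels were 1.20, 3.64 and 5.96, and on HFC 2.70, 4.36 and 6.17. With KAL-1 they were 2.58, 3.13 and 5.44 on HF5, 2.92, 5.04 and 5.86 on HF20, and 1.61, 3.96 and 5.50 on HF75. The 5 ranges overlapped, and the LFC low was the week 3 array. Gpihbp1, which anchors the lipase to the capillary, did not reach as low on HF5 as on the other diets. Its lowest, median and highest levels were 3.89, 5.65 and 6.57 on LFC and 3.53, 5.11 and 6.66 on HFC. On HF5 they were 6.11, 6.30 and 8.0, on HF20 4.50, 5.12 and 6.31, and on HF75 4.09, 6.24 and 6.69. The top HF5 value came from week 9, the array with the lowest 75th percentile of all (119.5 intensity units, against up to 1471.7 on the 37 arrays). The saturated Fabp4 probe was also highest there, at 9.05. Cd36 at 5.16 and the dimmer Fabp4 probe at 4.46 were below their medians over 37 arrays (5.30 and 5.15). The part of signal strength in the Gpihbp1 value was not tested. Vldlr, the lipoprotein receptor, lay between 0.40 and 2.73 on LFC (median 1.35), 1.13 and 3.25 on HFC (median 1.71), and -0.16 and 3.45 over the KAL-1 doses. Its 2 probes varied together (r = 0.92 over 37 arrays).

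Of the uptake genes, Acsl1 and Slc27a1 varied most. Acsl1, which activates long chain fatty acids for storage, had a lowest, median and highest level of -1.83, 0.00 and 3.99 on LFC and of -1.53, 0.89 and 3.52 on HFC. On HF5 the values were -1.96, -0.69 and 3.25, on HF20 -1.21, 1.91 and 3.57, and on HF75 -1.61, 0.43 and 3.07. Every diet thus held arrays near the bottom and near the top of the range. The SD over 37 arrays was 2.06, wider than for 97.7% of the 28024 probes compared (median SD 0.72), and the 3 Acsl1 probes varied together (r = 0.94 to 0.99). Slc27a1 had a level of -1.75 to 3.28 on LFC (median -0.20), -1.56 to 2.62 on HFC (median -0.22) and -1.92 to 2.41 over the KAL-1 doses, with an SD of 1.59, wider than for 94.1% of probes. Cd36, the surface receptor for fatty acids, varied less, with an SD of 0.57, wider than for 31.2% of probes. It lay between 2.79 and 5.88 on LFC (median 4.89), 3.66 and 5.69 on HFC (median 5.32), and 4.53 and 6.43 over the KAL-1 doses.

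Of the binding proteins Fabp4 varied less than Fabp5 on the probes used. The dimmer Fabp4 probe was saturated on 2 arrays and lay close below the saturated probe on some others, as on HF20 at week 18 (5.71 against 5.88). What part this upper limit had in its spread was not tested. Fabp4 on its dimmer probe lay between 2.90 and 5.55 on LFC (median 5.06), 3.92 and 5.56 on HFC (median 5.13), and 4.40 and 5.79 over the KAL-1 doses, with an SD of 0.46 over 37 arrays, wider than for 16.4% of probes. Fabp5 lay between -0.65 and 2.43 on LFC (median 0.94), -0.22 and 1.92 on HFC (median 0.94), and -0.20 and 2.40 over the KAL-1 doses, with an SD of 0.71, wider than for 49.1% of probes.

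**Figure D1:**
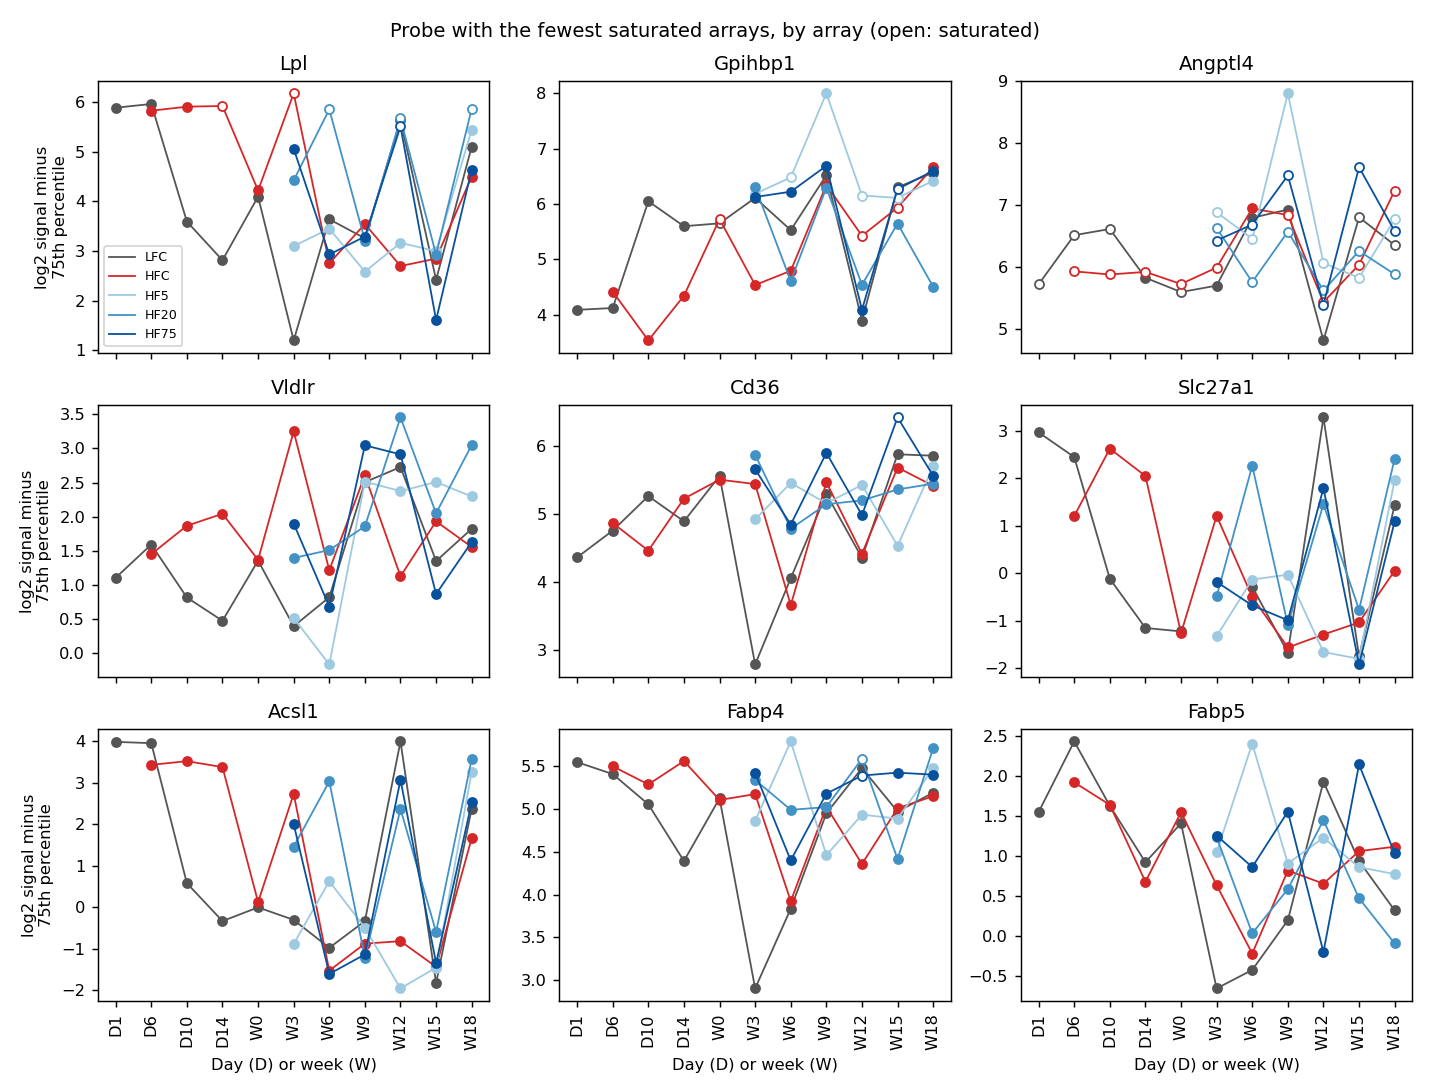
Level of each gene (vertical axis, log2 signal minus the 75th percentile of the array) by day or week (horizontal axis) for LFC, HFC, HF5, HF20 and HF75, 1 point per array, for the probe with the fewest saturated arrays, open where saturated. At week 12 Acsl1, Slc27a1 and Lpl are high on LFC, HF20 and HF75 and low on HFC and HF5, and Angptl4 is saturated on 32 of 39 arrays.

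The arrays fell into 2 sets, which cut across the diets, by the markers of endothelium, the cells that line the capillaries. Of 12 listed endothelium markers 11 are on the array, and all 11, Pecam1, Cdh5, Kdr and Cldn5 among them, were well above background on every array. With the 2 arrays that stood apart left out, their summed level was 5.89 to 6.99 on 11 arrays and 8.06 to 9.40 on 26, with a gap of 1.07 between them. Of the arrays left out, HFC week 12 was at 7.60, inside that gap, and LFC week 3 at 6.77, inside the lower range. The 11 arrays were 3 LFC (day 1, day 6, week 12), 4 HFC (days 6, 10 and 14, week 3), 3 HF20 (weeks 6, 12 and 18) and 1 HF75 (week 12), and no HF5 array was among them. They came from 8 scan dates, and 5 of the 11 and 2 of the 26 were scanned in the period of days 1 to 14. These 2 sets are not groups of the study and no test was made between them.

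Gpihbp1, Lpl, Acsl1 and Slc27a1 went with these sets. Gpihbp1 lay between 3.53 and 4.61 on the 11 arrays and between 4.79 and 8.0 on the 26 (saturated on 8), with no overlap. Lpl went the other way, between 5.50 and 6.17 on the 11 arrays (saturated on 6) and between 1.61 and 5.44 on the 26, also with no overlap. What share of all probes had no overlap between the sets was not counted, so the separation is not read as particular to these genes. Gpihbp1 is itself an endothelial gene, and the sets were divided by endothelium markers after the values were seen. The separation of Gpihbp1 is therefore not independent of that division. Acsl1 lay between 2.36 and 3.99 on the 11 arrays (median 3.43) and between -1.96 and 3.25 on the 26 (median -0.55). Slc27a1 lay between 1.21 and 3.28 (median 2.26) and between -1.92 and 1.97 (median -0.88). The last pair of ranges overlapped through the arrays at the top of the 26, HF5 week 18 highest for both genes. Cd36 (medians 4.87 and 5.45), Fabp4 (5.48 and 5.03), Fabp5 (1.45 and 0.99) and Vldlr (2.04 and 1.59) overlapped widely.

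Markers of other cells were also read on these sets. The adipocyte list (10 of 10 genes well above background on every array, none of them one of the 9 genes) had a summed level of 8.48 to 9.26 on the 11 arrays and 6.59 to 9.78 on the 26. The macrophage list lay between 3.66 and 6.01 and between 3.97 and 6.34. The adipose progenitor list lay between 6.32 and 7.11 on the 11 arrays (median 6.64) and between 6.88 and 9.46 on the 26 (median 7.43). The brown fat list was higher on the 11 arrays, at 2.08 to 6.43 (median 3.76) against 0.15 to 3.69 (median 1.43), with Ucp1, which defines brown fat, at -0.46 or less on every array. The liver list, 5 of 6 genes on the array, lay between 3.43 and 5.80 on the 11 arrays (median 5.11) and between -0.11 and 5.43 on the 26 (median 1.47). Of its genes Cyp2e1 was well above background on 39 arrays, Alb on 35, Apoa2 on 23, Fgb on 21 and Ttr on 2. The 75th percentile of the signal was 696.8 to 1471.7 intensity units on the 11 arrays (median 1071) and 119.5 to 1275.8 on the 26 (median 639.2). What part cell composition or signal strength had in the levels of the 9 genes was not tested.

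**Figure D2:**
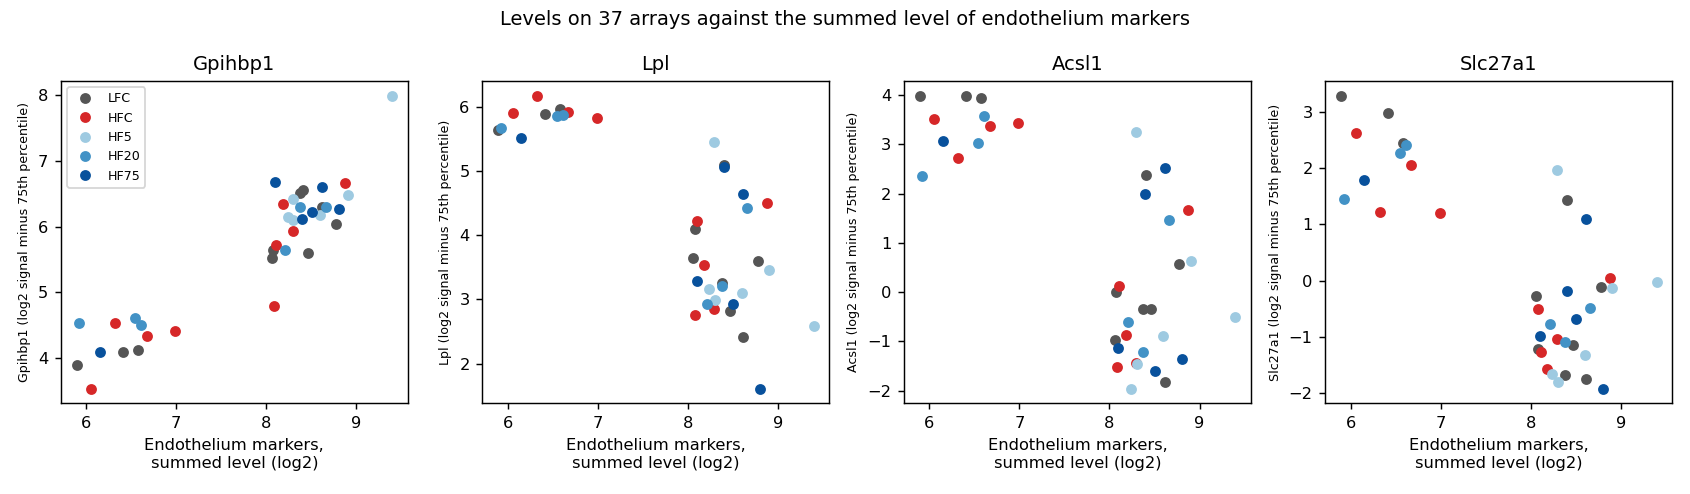
Level of Gpihbp1, Lpl, Acsl1 and Slc27a1 (vertical axes, log2 signal minus the 75th percentile) against the summed level of 11 endothelium markers (horizontal axis, log2) on 37 arrays, 1 point per array, coloured by diet. The 11 arrays on the left hold LFC, HFC, HF20 and HF75 and have Gpihbp1 at 4.61 or less and Lpl at 5.50 or more.

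Within each set, relations between genes were taken over arrays, 30 relations in all, with 100000 permutations (two-sided), whose smallest p is 1e-05. On the 26 arrays Acsl1 rose with Lpl (r = 0.87, p = 1e-05, adjusted p 0.00015, and rho = 0.79, p = 2e-05, adjusted p 0.0006), with r = 0.83 without the 2 arrays farthest from the median and 0.88 on the 24 arrays of weeks 0 to 18. Acsl1 also rose with Slc27a1 there (r = 0.82, p = 1e-05, adjusted p 0.00015, and rho = 0.67, p = 0.0003, adjusted p 0.00225), with r = 0.71 without the 2 farthest and 0.82 on the weeks. Gpihbp1 rose with the summed endothelium markers (r = 0.70, p = 0.00012, adjusted p 0.00072, and rho = 0.52, p = 0.00734, adjusted p 0.0245), but r was 0.45 without the 2 farthest arrays and 0.75 on the weeks. Its probe was saturated on 8 of the 26 arrays, which limits its highest values. Saturation of the endothelium marker probes was not counted, and the part of each array's upper limit in these r was not tested. On the 11 arrays Acsl1 went with Slc27a1 (r = 0.77, p = 0.00574, adjusted p 0.0215, and rho = 0.80, p = 0.00462, adjusted p 0.0173), with r = 0.67 without the 2 farthest and 0.92 on 6 weeks. There Acsl1 and Lpl had r = 0.04 (permutation p = 0.912, adjusted p 0.943), with Lpl saturated on 6 of the 11. As time points and scan dates mostly coincide, the 15 relations on the 26 arrays were also taken within scan dates, on the 22 arrays that shared one of 6 dates, with levels less the mean of their date and permuted within dates. There 2 of the 15 passed. Acsl1 went with Slc27a1 (r = 0.60, permutation p = 0.00307, adjusted p 0.023, and r = 0.59 without the 2 farthest arrays), and Gpihbp1 with the endothelium markers (r = 0.87, p = 0.00125, adjusted p 0.0188, and 0.64 without the 2 farthest). Acsl1 and Lpl did not pass (r = 0.63, permutation p = 0.0364, adjusted p 0.078). Of the 11 arrays 5 shared a scan date with another, too few for this.

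The adipocyte markers moved with several of the genes on the 26 arrays. Acsl1 had r = 0.68 with their summed level (permutation p = 7e-05, adjusted p 0.0006, and rho = 0.71, p = 5e-05, adjusted p 0.00075), with r = 0.62 without the 2 farthest arrays. Gpihbp1, an endothelial gene saturated on 8 of the 26 arrays, had r = 0.67 with them (permutation p = 0.00015, adjusted p 0.00075, and rho = 0.68, p = 0.00014, adjusted p 0.0014), with r = 0.63 without the 2 farthest. Fabp5 had r = 0.14 (permutation p = 0.489, adjusted p 0.702), and Vldlr r = 0.25 (permutation p = 0.224, adjusted p 0.396). Within scan dates none of the 8 relations with the adipocyte markers passed, with r = 0.45 for Acsl1 and 0.69 for Gpihbp1 (permutation adjusted p 0.078 for both), and r = 0.31 for Gpihbp1 without the 2 farthest arrays. On the 11 arrays none of the 8 relations of the genes with the adipocyte markers passed an adjusted p of 0.05. Saturation of the adipocyte marker probes was not counted on either set, and on the 11 arrays their summed level spanned only 8.48 to 9.26. No lack of a relation is read from this.

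The first comparison asked whether the high fat diet changed these genes, with HFC against LFC over 10 shared time points. None of the 9 passed in limma, nor did any probe of the array (0% of 29698). At an unadjusted p under 0.05 there were 0 of the 9 genes and 3.05% of all probes. With time point as a block, Lpl differed by 0.67 log2 (95% interval -0.69 to 2.02, limma adjusted p 0.998), Acsl1 by 0.31 (-1.18 to 1.80) and Slc27a1 by -0.08 (-1.54 to 1.39). Gpihbp1 differed by -0.46 (-1.19 to 0.26), Vldlr by 0.46 (-0.31 to 1.22) and Cd36 by 0.14 (-0.49 to 0.77). Fabp4 differed by 0.28 (-0.32 to 0.88) and Fabp5 by 0.12 (-0.40 to 0.63). On the brightest probes Lpl differed by 0.18 (-0.52 to 0.88) and Acsl1 by 0.36 (-0.91 to 1.62). Several of the values on the probes with the fewest saturated arrays rest on week 3. Without that time point Lpl and Acsl1 were 0.19 and 0.0035 (limma adjusted p 1.00 for both). Vldlr was then 0.19, Fabp4 0.06, Cd36 -0.14, Fabp5 -0.01 and Gpihbp1 -0.34. Without week 12 Lpl and Acsl1 were 1.07 and 0.87 (adjusted p 0.70 for both). The intervals of Lpl, Acsl1 and Slc27a1 were the widest, and differences inside them were not detectable with these arrays. The median over the 9 genes, Angptl4 included, was 0.14, beside 0.03 over all probes.

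The difference between the diets changed sign between pairs. Both arrays share a slide at weeks 0, 3 and 18. At week 0 the 8 genes other than Angptl4 differed by -0.06 to 0.14, and the SD of the difference over all probes was 0.45, the smallest of the 10 pairs. At day 10 Acsl1 was higher on HFC by 2.94 log2, Slc27a1 by 2.74 and Lpl by 2.31, and Gpihbp1 was lower, with a difference of -2.51. Day 14 had the same pattern, with 3.71, 3.20, 3.10 and -1.26 in that order. Week 12 went the other way, with -4.81, -4.57, -2.93 and 1.53. In these 3 pairs 1 array belonged to the 11 with a low summed endothelium level and the other did not. The SD over all probes in these pairs was 1.28, 1.19 and 1.61, and week 12 rests on the HFC array that stood apart. At day 6 and weeks 6, 9, 15 and 18, where both arrays were of 1 set, no gene of the 8 differed by more than 1.38, and the SD was 0.55 to 0.79. At week 3, where the LFC array stood apart and the SD was 2.24, Lpl was higher on HFC by 4.97, Acsl1 by 3.03, Vldlr by 2.85, Cd36 by 2.66 and Fabp4 by 2.27. These were the largest differences of Cd36 and Fabp4 in any pair.

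**Figure D3:**
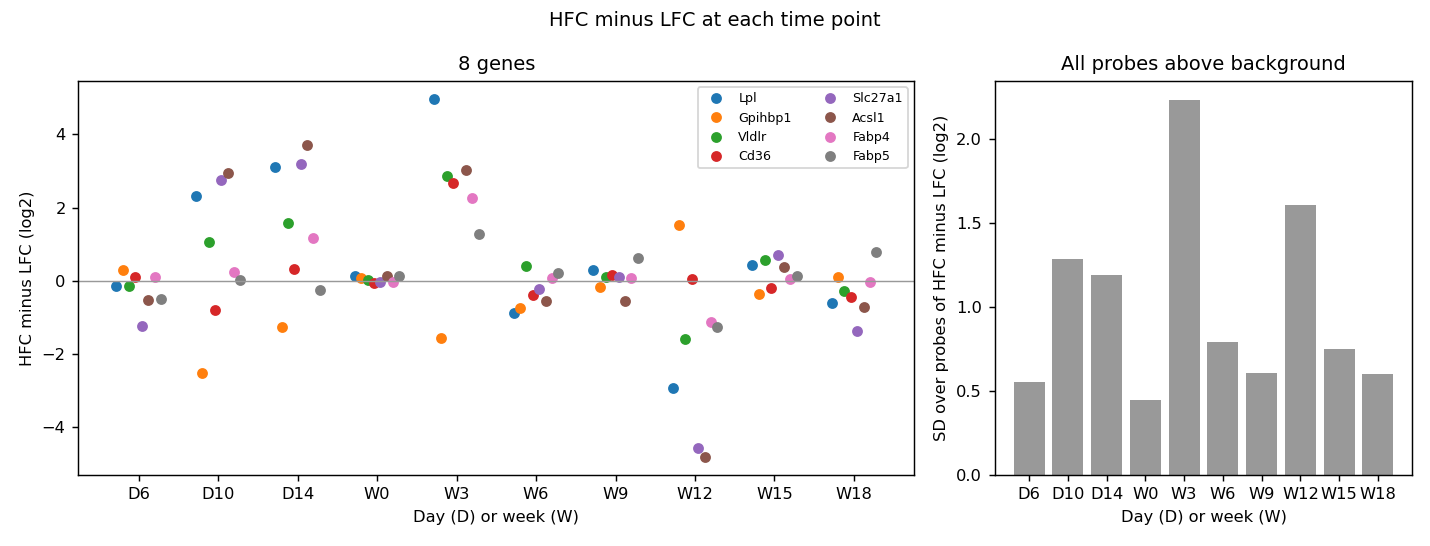
HFC minus LFC (log2) at each of 10 time points for 8 genes (left, 1 point per gene) and the SD of that difference over all probes well above background on both arrays (right, bars). Acsl1, Slc27a1 and Lpl are above 2 at days 10 and 14 and below -2 at week 12, and all 8 genes lie within 0.14 of 0 at week 0, while at week 3, with the LFC array that stood apart, Lpl is at 4.97 and Acsl1 at 3.03.

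Over weeks 3 to 18, when all 5 diets were sampled, HFC against LFC again gave none of the 9 genes (0% of 32083 probes by adjusted p, and 2.33% at an unadjusted p under 0.05, with 0 of the 9). The mean of the 4 high fat groups against LFC, which uses all 30 arrays, also gave none (0%, and 6.05% unadjusted, with 0 of the 9). There the lowest p were those of Cd36 at 0.56 log2 (95% interval -0.07 to 1.20, limma p 0.0799, adjusted p 0.763) and Fabp4 on its dimmer probe at 0.50 (-0.07 to 1.08, p 0.0844, adjusted p 0.763). Over the settings tried Cd36 lay between 0.10 and 0.98 in this comparison. Both genes were lowest on the LFC week 3 array, at 2.79 and 2.90.

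KAL-1 was compared with HFC at 3 doses over weeks 3 to 18, to ask whether the formulation altered the response to the high fat diet. The 3 comparisons share the HFC arrays, among them the week 12 array that stood apart. None of the 9 genes passed at any dose (0% of probes at each dose), and the shares of all probes at an unadjusted p under 0.05 were 3.44% for HF5, 5.05% for HF20 and 1.54% for HF75. Among the 9 genes, 1 was under that level for HF5 and 0 for the other doses. This was Gpihbp1, 0.94 log2 higher on HF5 than on HFC (SE 0.39, 95% interval 0.14 to 1.74, limma p 0.0235, adjusted p 0.955). Its levels were 6.18, 6.48, 8.0, 6.15, 6.11 and 6.42 on HF5 at weeks 3, 6, 9, 12, 15 and 18, and 4.53, 4.79, 6.34, 5.42, 5.93 and 6.66 on HFC. HF5 was higher in 5 of the 6 weeks and the groups overlapped. The endothelium markers summed to 8.24 to 9.40 on HF5 and 6.32 to 8.88 on HFC, and 3 HF5 and 2 HFC arrays had Gpihbp1 saturated. Their part in the result was not tested.

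At HF20 the genes with the largest differences from HFC were Acsl1 at 1.48 log2 (95% interval -0.21 to 3.17, limma p 0.0827, adjusted p 0.772), Slc27a1 at 1.15 (-0.21 to 2.51, p 0.0924) and Lpl at 0.90 (-0.41 to 2.22, p 0.169). On the brightest probes Acsl1 differed by 1.06 (-0.49 to 2.61) and Lpl by 0.44 (-0.37 to 1.25). Lpl was saturated on the HF20 arrays of weeks 6, 12 and 18 and on the HFC array of week 3. Acsl1 on its dimmer probe was at 1.46, 3.03, -1.21, 2.36, -0.60 and 3.57 on HF20 at weeks 3, 6, 9, 12, 15 and 18. On HFC it was at 2.73, -1.53, -0.88, -0.82, -1.44 and 1.66 in that order. The HF20 values above 2 were those of weeks 6, 12 and 18, all of the 11 arrays with a low summed endothelium level. Of the HFC arrays only week 3 was of that set. At HF75 the 8 genes other than Angptl4 differed from HFC by -0.11 (Vldlr) to 0.63 (Acsl1), and Cd36 was higher in 6 of 6 weeks, by 0.15 to 1.19, with a mean of 0.55 (95% interval -0.26 to 1.35, limma p 0.173, adjusted p 1.00). Fabp4 on its dimmer probe was also higher on HF75 in 6 of 6 weeks, by 0.15 to 1.03, with a mean of 0.43 (95% interval -0.30 to 1.16, limma p 0.234, adjusted p 1.00). On the brightest probes HF75 differed from HFC by 0.92 in Acsl1 (-0.63 to 2.48) and by 0.65 in Lpl (-0.15 to 1.46). With the 3 doses averaged, none passed against HFC (0%, and 1.86% unadjusted, with 0 of the 9), with a median of 0.34 over the 9 genes beside -0.03 over all probes. The order of the group means over weeks 3 to 18 put HF20 highest for Acsl1, Slc27a1, Lpl and Vldlr, HF75 for Cd36 and Fabp4, and HF5 for Fabp5 and Gpihbp1. On its brightest probe Lpl was highest on HF75. No neighbours in these orders lay further apart than 0.85, the largest step being in Acsl1, where the SD of a group was 1.79 to 2.22.

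**Figure D4:**
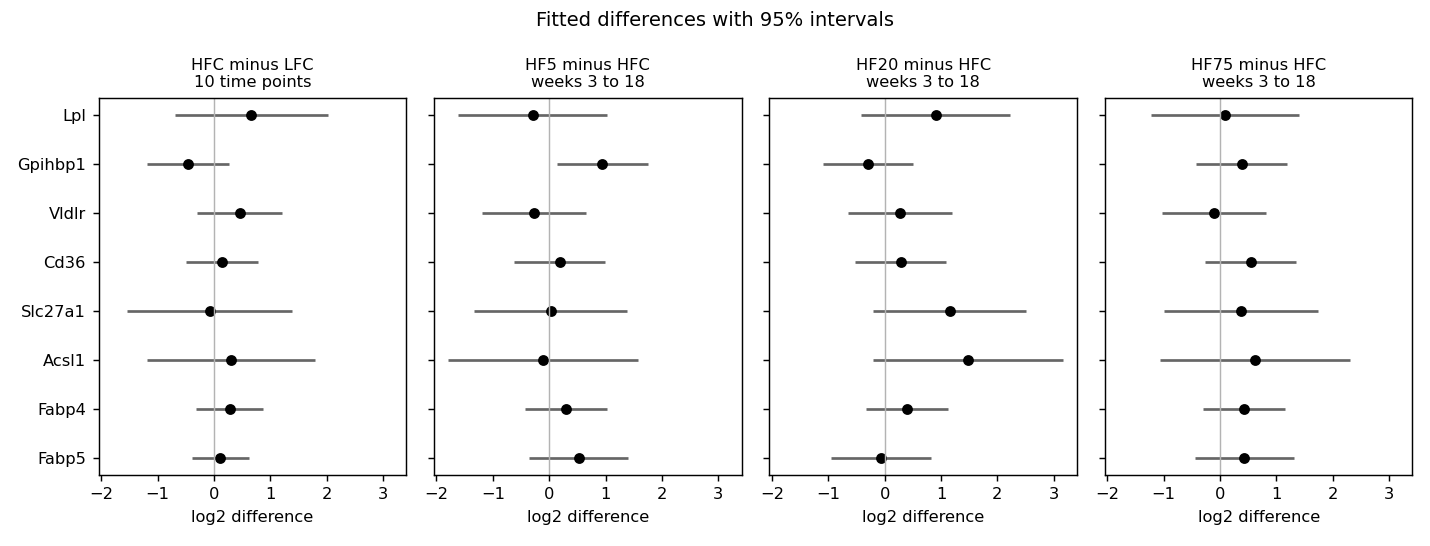
Difference in level (horizontal axes, log2) for 8 genes in HFC minus LFC over 10 time points and HF5, HF20 and HF75 minus HFC over weeks 3 to 18, with points for the fitted difference and lines for its 95% interval. All intervals cross 0 but that of Gpihbp1 in HF5 minus HFC (0.94, 0.14 to 1.74).

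Change with time was read as late (weeks 3 to 18) against early (days 1 to 14 and week 0), within each diet. On LFC none of the 9 genes passed, where 0.468% of 30958 probes did, and 1 of the 9 had an unadjusted p under 0.05, beside 5.49% of all probes. This was Fabp5, with early levels of 1.55, 2.43, 1.63, 0.92 and 1.41 at days 1, 6, 10 and 14 and week 0. Its late levels were -0.65, -0.42, 0.20, 1.93, 0.94 and 0.32 at weeks 3 to 18, the lowest on the week 3 array that stood apart. Most late values lay below most early ones, but week 12 was above 4 of the 5 early arrays. The difference was -1.20 log2 (SE 0.48, 95% interval -2.24 to -0.16, limma p 0.0267, adjusted p 0.814). Over the settings tried it lay between -1.51 and -0.92.

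Within HFC none of the 9 genes and 0% of 29907 probes had an adjusted p under 0.05. At an unadjusted p under 0.05 there were 3 of the 9 genes by the brightest probes and 4 by the probes with the fewest saturated arrays, beside 17.1% of all probes. Acsl1 was at 3.43, 3.52, 3.37 and 0.12 at days 6, 10 and 14 and week 0, and at 2.73, -1.53, -0.88, -0.82, -1.44 and 1.66 at weeks 3 to 18. The 3 day arrays were above every late one, and week 0 lay among the late ones. The difference was -2.65 log2 (SE 0.98, 95% interval -4.82 to -0.49, limma p 0.0207, adjusted p 0.246), and -1.95 on the brightest probe (limma p 0.0302, adjusted p 0.260).

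Slc27a1 was at 1.21, 2.62, 2.05 and -1.26 early, and at 1.21, -0.50, -1.56, -1.29, -1.03 and 0.05 late, a difference of -1.68 (SE 0.76, limma p 0.0494, adjusted p 0.292). Lpl was at 5.82, 5.90, 5.92 and 4.22 early, and at 6.17, 2.75, 3.54, 2.70, 2.85 and 4.50 late, a difference of -1.71 (SE 0.69, limma p 0.0304, adjusted p 0.260). The difference of Lpl was -0.81 on its brightest probe (limma p 0.0964). Gpihbp1 moved the other way, with 4.41, 3.53, 4.34 and 5.72 early and 4.53, 4.79, 6.34, 5.42, 5.93 and 6.66 late, a difference of 1.11 (95% interval -0.03 to 2.25, limma p 0.0555, adjusted p 0.300). In all 4 genes the week 0 array lay apart from the 3 day arrays and near the late ones. Fabp5 was the other gene under that level, at -0.77 (SE 0.34, limma p 0.0439, adjusted p 0.283).

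Scan period and endothelium markers were not evenly spread over early and late arrays, and their part in these differences was not tested. The 3 day arrays were scanned in the later period, while week 0 was scanned in the period of the late arrays. The HFC arrays of day 14 and week 0, of equal time on the diet, differed by -3.25 log2 in Acsl1, -3.31 in Slc27a1, -1.70 in Lpl and 1.38 in Gpihbp1 (week 0 minus day 14), where the median size of the difference was 0.62 over 28919 probes and its 95th percentile 2.64. On LFC the same pair differed by 0.33, -0.07, 1.28 and 0.05. Of the early HFC arrays 3 of 4 belonged to the 11 with a low summed endothelium level, and of the late ones 1 of 6. With the days as the only early arrays Slc27a1 differed by -2.48 (limma adjusted p 0.0551) and Acsl1, on its brightest probe, by -2.44 (0.0984). With week 0 as the only early array they differed by 0.74 and -0.46 (adjusted p 1.00 for both). Without week 12, whose HFC array stood apart, Slc27a1 differed by -1.52, Gpihbp1 by 1.15 and Fabp5 by -0.76. Acsl1 and Lpl, on their brightest probes, then differed by -1.65 and -0.59. The late against early change of the HFC minus LFC difference gave none of the 9 (0% of 29698 probes, and 5.26% unadjusted, with 0 of the 9), so that the 2 diets were not shown to differ in their change with time. The values there were -2.09 for Acsl1 (95% interval -4.98 to 0.79), -2.23 for Slc27a1 (-4.93 to 0.46) and -1.14 for Lpl (-3.94 to 1.66).

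**Figure D5:**
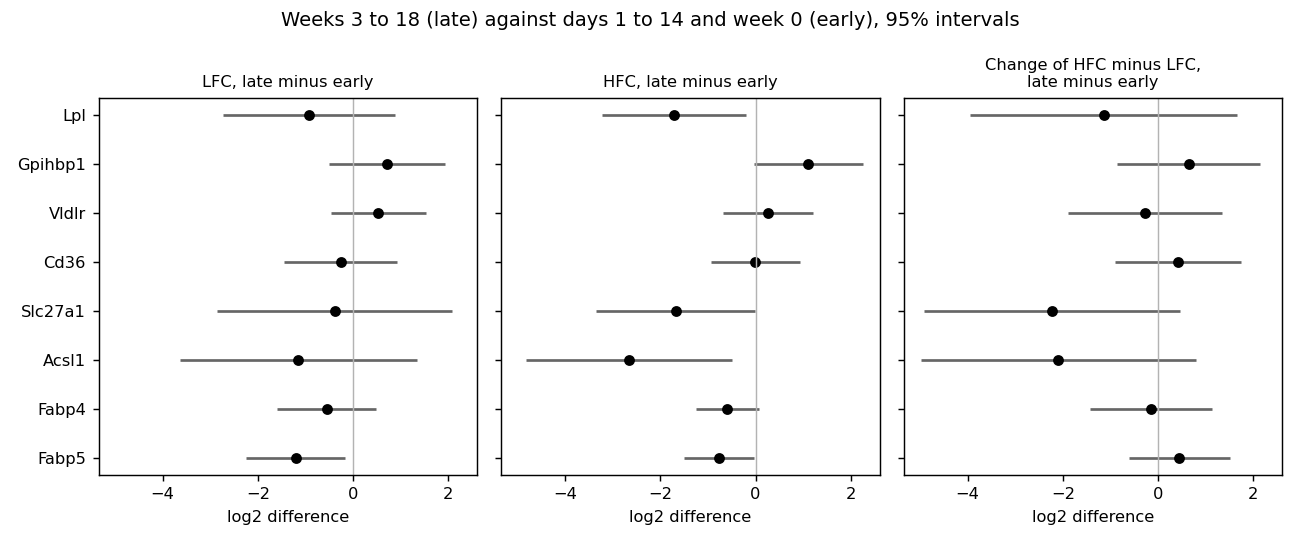
Late minus early difference in level (horizontal axes, log2) for 8 genes within LFC, within HFC and for the HFC minus LFC difference, with points for the fitted difference and lines for its 95% interval. Within HFC the intervals of Lpl, Acsl1, Slc27a1 and Fabp5 lie below 0 (unadjusted), and within LFC that of Fabp5 does.

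Log ratios of 2 genes within an array do not depend on how arrays are scaled, and 3 were tested over the 10 pairs by exact sign flips (two-sided, adjusted over the 3). That of inhibitor to enzyme, Angptl4 minus Lpl, is not read, since Angptl4 was saturated on most arrays (exact p 0.654). Gpihbp1 minus Lpl differed between HFC and LFC by -0.65 ± 2.08 (SD, n = 10, higher in 3 of 10, exact p 0.369, adjusted p 0.554) with the brightest Lpl probe, which was saturated on 13 arrays, and by -1.13 ± 3.23 with the dimmer one (SD, n = 10, higher in 4 of 10, exact p 0.297, adjusted p 0.467). Fabp5 minus Fabp4, the ratio of the binding proteins, differed by 0.43 ± 0.93 (SD, n = 10, higher in 8 of 10, exact p 0.178, adjusted p 0.533), with the saturated Fabp4 probe. On the dimmer Fabp4 probe it was -0.16 ± 0.68 (SD, n = 10, higher in 5 of 10, exact p 0.467, adjusted p 0.467), so its direction turned with the probe.

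Other genes of the pathway were read from 7 lists: partners and inhibitors of lipoprotein lipase, fatty acid transport and activation, lipoprotein receptors, triglyceride esterification, PPAR factors and targets, and genes that respond to glucocorticoid or to low oxygen. Of their 98 genes on the array 95 or 96 were tested in a comparison, and 0 passed by adjusted p in any of the 10. At an unadjusted p under 0.05 the counts were 1 higher and 1 lower for HFC against LFC over 10 time points (2.11% of 95, beside 3.05% of all probes), and 6 and 5 for the mean of the high fat groups (11.5% of 96, beside 6.05%). For change with time on HFC they were 9 and 18 (28.4% of 95, beside 17.1%). The lowest p among the high fat groups against LFC was that of Lipa, the lysosomal acid lipase, at 1.1 log2 (SE 0.29, limma p 0.00106, adjusted p 0.763). Lcn2, a secreted lipocalin, was at -2.39 for HFC against LFC over weeks 3 to 18 (SE 0.75, limma p 0.00401, adjusted p 1.00). Lrp8, another receptor of the family of Vldlr, was at 1.35 for HF5 against HFC (SE 0.48, limma p 0.0103, adjusted p 0.955), and Apoa5, which raises lipase activity, at -1.36 for HF20 (SE 0.55, limma p 0.021, adjusted p 0.772). Within HFC, late against early, Zbtb16 was at 1.63 (SE 0.29, limma p 0.000172, adjusted p 0.204) and Lrp2, a large lipoprotein receptor, at -3.65 (SE 0.79, limma p 0.00073, adjusted p 0.204).

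The genes most like each of the 9 in pattern were taken by Pearson's r over 37 arrays, among 20082 gene names, as a description. The values share the scaling of the arrays and the 2 sets described above, and the probes of Robo4, Pck1, Adipoq, Dgat2, Tmcc3, Gm13998 and Plin1 were saturated on 10 to 20 of the 39 arrays. Acsl1 was most like Mlxipl (r = 0.97), Gpam (0.97) and Aldh1l1 (0.97), and on its brightest probe like Agpat9 (0.95), Plin1 (0.95) and Lgals12 (0.95). Gpam and Agpat9 are acyltransferases of glycerol phosphate, and Plin1 coats the lipid droplet. Lpl was most like Acp5 (0.96), Adhfe1 (0.96) and Pcca (0.96), and on its brightest probe like Pck1 (0.89), Dgat2 (0.88) and Adipoq (0.88). Slc27a1 was most like Coq5 (0.94), Pex16 (0.94) and Acadm (0.94), Gpihbp1 like Robo4 (0.96), Msmp (0.95) and Tmcc3 (0.94), and Vldlr like Dtnbp1 (0.85), Syde2 (0.82) and Rab32 (0.81). Cd36 was most like Iqsec3 (0.77), Aqp7 (0.76) and Cldn15 (0.75), and Fabp4 like 6430573F11Rik (0.80), 5730528L13Rik (0.76) and Krcc1 (0.76). Fabp5 was most like Gm6166 (0.93), Gm13998 (0.76) and LOC547041 (0.75), and whether those probes also bind Fabp5 RNA was not tested. For Angptl4 the most alike probes were themselves saturated on 36 or 37 arrays, and they are not named as like it.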

How the data were processed

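RNA was read on 39 one-colour Agilent arrays. Per the file headers, the deposited intensity values were background-subtracted and detrended by the authors with Feature Extraction 10.5.1.1 (version 9.1 in the submitters' processing notes), on annotation of build mm9, with no normalisation between arrays. Deposited log2 differences from LFC, made by the authors, were used only as an alternative.

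Levels are log2 of that signal, less the same array's 75th percentile. Outlier spots were set to missing and spots of a probe averaged. The filter on dim probes asked for signal well above background on 10 or more of 20 arrays (HFC against LFC), 6 of 30 (weeks 3 to 18), 5 of 11 (LFC) or 5 of 10 (HFC). The model was fitted in R 4.3.3 with limma 3.58.1, with two-sided tests, Benjamini-Hochberg adjustment over all probes tested and a threshold of 0.05, with time point as a block between diets. The fit was tested on simulated data. Other tools were matplotlib 3.10.9, scipy 1.17.1, numpy 2.4.6 and pandas 2.3.3 under Python 3.11.15, and the R package data.table (1.17.8).

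The genes, lists and tests were chosen with earlier results of these data known. Named were all 9 genes, the 3 gene names most like each by r, and up to 3 genes per comparison of the 7 pathway lists with the smallest unadjusted p under 0.05, of which some are given. Marker lists were summed on the linear scale. The gene lists also held markers of lymphoid cells, progenitors, mesothelium, epididymis, testis, muscle, brown fat, blood and liver, read as summed levels. The 2 sets of arrays were divided at the largest gap in the summed endothelium level, with the 2 arrays that stood apart left out, after the values were seen. Alternatives were median and quantile scaling, normexp (offset 50), outlier spots kept, other filters, array weights, all probes of a gene averaged, slide as a block, the methods' t-test, the authors' log2 differences and leaving out each time point.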

Additional observations from a re-analysis of the deposited data

Results flagged for a closer look

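Of 49 groups of 4 to 10 arrays tested, 8 held an array whose gap to the nearest other was large for the range of its group. Chance flags about 1 in 20 groups, but the groups share arrays and genes, and several flags come from the HF5 week 9 array. The number flagged is therefore not read as an excess over chance. Lpl was highest on HF5 at week 18 on both probes, at 6.76 on the brightest (saturated there, next array 5.24) and 5.44 on the dimmer (next 3.45). On HF5 at week 9 Gpihbp1 was at 8.0 (next 6.48), Angptl4 at 8.80 (next 6.88) and the saturated Fabp4 probe at 9.05 (next 6.92). That array had the lowest 75th percentile of signal, 119.5 intensity units. Fabp5 was highest on HF5 at week 6, at 2.40 (next 1.23). On HF75 the dimmer Fabp4 probe was lowest at week 6, at 4.40 (next 5.18), and Gpihbp1 at week 12, at 4.09 (next 6.12). The HF75 week 12 array was the one of that diet with a low summed endothelium level.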

How the results depend on the processing

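For the 9 genes on their brightest probes 1907 values were recomputed. Of these 147 had the opposite sign to the main value on the brightest probe, with neither called. Without Fabp4 and Angptl4, both mostly saturated, it was 109 of 1498. The differences given above are mostly from the probe with the fewest saturated arrays, so these counts do not refer to all of them. Of the 1907 values 3 passed an adjusted p of 0.05. All 3 were late against early within HFC with array weights in limma, where 3 of the 9 genes passed: Acsl1 at -2.64 (adjusted p 0.0135), Slc27a1 at -2.30 (0.0167) and Gpihbp1 at 1.51 (0.0272). In that setting 8014 of the 29907 probes tested passed, so the calls are not read as particular to these genes. On the probes with the fewest saturated arrays 4 passed there, Acsl1 at -3.75 (0.0114), Lpl at -2.38 (0.0118), Slc27a1 and Gpihbp1. The cause was not tested. Over the alternatives of that comparison the number of probes called ran from 0 to 8014, and from 0 to 833 with 1 time point left out, 833 being without week 0. Within LFC, where 145 probes were called, it ran from 0 (normexp, or week 0 as the only early array) to 332 (array weights), and with 1 time point left out from 51 (without day 6) to 212 (without week 3). The log ratio of Fabp5 to Fabp4 turned to -0.16 on the dimmer Fabp4 probe, an alternative chosen after seeing the data, as were the days as the only early arrays, relations within scan dates and saturated spots set to missing. Scaling by the array median moved the median of all probes by 0.35 for HF5 and HF75 against HFC. Saturation limits what can be read of Fabp4 and Angptl4.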
